A study of Rattus norvegicus with 15 samples.

Results

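The glucocorticoid-induced genes Cebpd, Sgk1, Errfi1, Fkbp5, Tsc22d3, Klf9 and Klf15 were described in the gastrocnemius muscle of rats fed a low-protein diet, together with Nr3c1, the glucocorticoid receptor itself. They were found as all probe sets whose only gene symbol is among these 8, which gave 16 probe sets of 31042 on the array and 8 of 14217 genes. Total RNA of 15 male Wistar rats, bought at 3.5 weeks of age, had been hybridized to Affymetrix whole-genome rat arrays, 1 to a rat. CN rats (4 arrays) ate 15% casein and LP rats (4 arrays) a calorie-matched diet with 8% casein for 4 weeks. CN-R (3 arrays) and LP-R (4 arrays) were the rats set apart from these groups on day 27 and sampled on day 84, and every rat was sampled after a fast of 16 h. The paper's methods put LP-R back on the control diet after the first period, whereas the treatment text of the labels leaves them on the diet they had, so the diet of LP-R after day 27 is not settled here. CN-R replicate 4 is a control in its title and description but is called protein-restricted in its treatment field, and it was kept in CN-R. CN-R replicate 3 was not analysed here. Per the methods, rats near the mean body weight of their group were chosen for the arrays, so the spread given here may be smaller than that of all rats of a group.

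Glucocorticoids are adrenal steroids that rise with fasting and stress. They cross the cell membrane and bind Nr3c1, which is held in the cytoplasm by Hsp90 chaperones, moves to the nucleus and binds DNA at palindromic elements near its targets. In skeletal muscle the receptor is known for driving protein breakdown, amino acid oxidation and lower glucose uptake. Its direct targets include transcription factors (Cebpd, Klf9, Klf15), a kinase (Sgk1), an inhibitor of growth factor receptors (Errfi1), an inhibitor of inflammatory transcription factors (Tsc22d3, also called GILZ) and a chaperone that feeds back on the receptor (Fkbp5).

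The values are log2 signals made with FARMS, which summarizes the probes of a probe set and returns nearly the same value for all arrays where the probes show no common variation. A probe set was taken to vary when its SD over the arrays of a set was over 0.01. Of 31042 probe sets, 3974 varied over the 8 early arrays (CN and LP) and 3100 over the 7 late arrays (CN-R and LP-R). The early and late arrays were summarized apart, so signals were compared within a set only. Across all probe sets, which are not independent of each other, 2 arrays of a set had a Pearson's r of 0.997 to 0.999. A muscle piece holds several cell types, and a change in their numbers cannot be told apart from a change of RNA per cell.

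Nr3c1 gave nearly constant values. Its probe sets 1368221_at and 1368222_at stood at a log2 signal of 9.48 and 6.54 in every CN and LP array and at 9.26 and 6.44 in every CN-R and LP-R array. No diet difference of the receptor's RNA can be read from values of this kind, and they do not show that there was none. A further 3 probe sets, 1389828_at of Cebpd, 1390076_at of Klf9 and 1381395_at of Klf15, were nearly constant in both sets at signals of 5.83 to 6.07. Klf15 probe set 1368249_at varied over the early arrays and was constant at 8.68 over the late ones. This left 11 probe sets of 7 genes that varied in CN and LP and 10 of the same 7 genes in CN-R and LP-R.

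After 4 weeks, 4 of the 8 genes were called lower in LP than in CN and 0 higher. These were Cebpd, Errfi1, Klf9 and Klf15, through 5 probe sets. The call is by rank products, which multiply the ranks of a probe set over all pairs of an LP and a CN array. It was made at a pfp (percentage of false-positives) at or under 0.05. The null of the pfp shuffles values over the probe sets of each array, most of which are nearly constant. A probe set that varies between rats fed alike can thus have a small pfp, which is not the share of false diet calls. The method called 2.41% of all genes lower and 2.57% higher, or 1.58% of all probe sets lower and 1.68% higher. Every probe set called lower is among the varying ones, of which 12.4% were called lower, beside 5 of the 11 that vary for the members. The members were chosen with earlier results of these data known, so an excess among them is not independent evidence. Cebpd, Klf9, Klf15 and Fkbp5 each enter the 11 with a second probe set, so the 11 are not independent of each other. Of these 11, 9 had a lower mean in LP, with a median difference of −0.13, whereas 42.4% of all varying probe sets had a lower mean, with a median of 0.02. LP and CN overlapped for each of the 11 probe sets, whereas the groups did not overlap for 7.9% of all varying ones. By limma 0 of these 11 had an unadjusted p under 0.05, beside 14.5% of varying probe sets, and 0 passed a Benjamini-Hochberg adjusted p of 0.05, as 0.0% of all did (smallest adjusted p of a varying member probe set 0.677). When rank products was run on varying probe sets alone, it called 20 lower and 11 higher in all and 0 members.

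**Figure D1:**
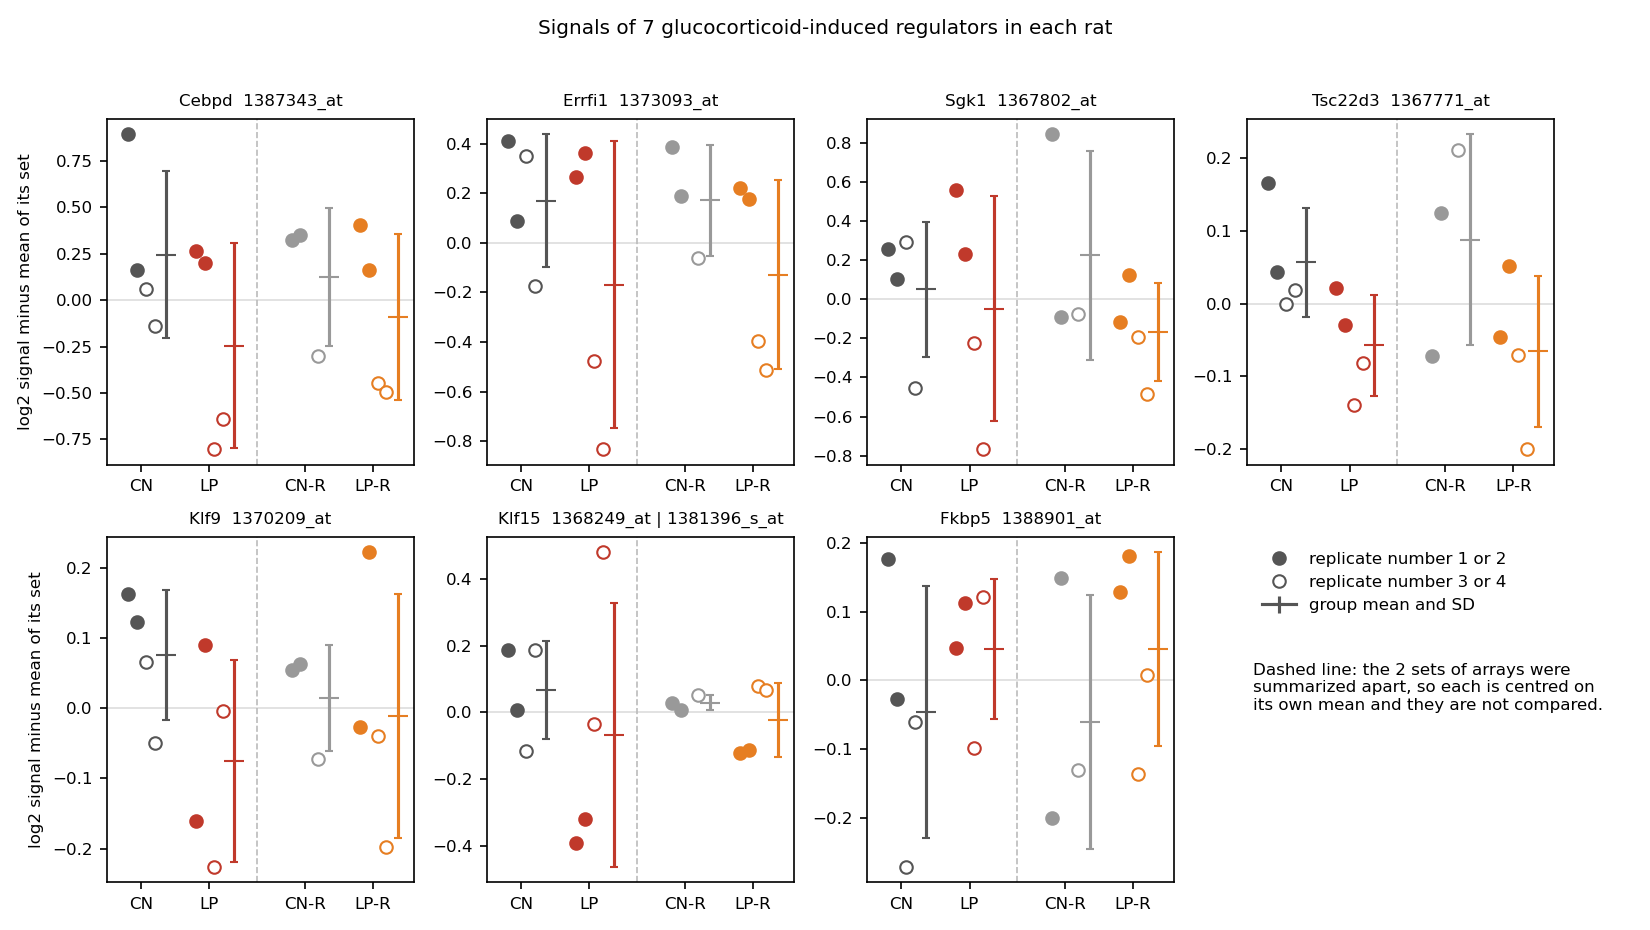
Log2 signal of each rat, minus the mean of its set of arrays, for the varying probe set of highest mean signal of 7 genes (filled points, replicate numbers 1 and 2; open points, 3 and 4; crosses with bars, group mean and SD). For Cebpd and Errfi1 the lowest LP points are the open ones, and CN and LP overlap in every panel.

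Cebpd, a basic leucine zipper transcription factor that rises fast in muscle with glucocorticoids and cytokines, had the largest difference of the members in LP. The log2 signals of 1387343_at were 9.50, 8.77, 8.67 and 8.47 in CN replicates 1 to 4 and 8.88, 8.81, 7.81 and 7.97 in LP replicates 1 to 4. LP replicates 3 and 4 lay below all controls, whereas LP replicates 1 and 2 lay above 3 of the 4 controls. The mean was 8.86 ± 0.449 in CN and 8.37 ± 0.554 in LP (SD, n = 4 each), a difference of −0.49 (SE 0.357) or 1.40-fold, called lower at a pfp of 0.00457 (exact two-sided permutation p = 0.286). The signals of the other varying probe set, 1368813_at, were 8.77, 8.16, 8.14 and 8.04 in CN and 8.17, 8.20, 7.36 and 7.52 in LP. It had the same 2 LP rats at the bottom and a difference of −0.46 (SE 0.277), called lower at a pfp of 0.00726. Cebpd is among the genes that the study picked from these arrays, so its direction is not independent evidence. The call was lost without CN replicate 1, the highest of the 8 rats, where the difference was −0.27, and the difference was −0.30 without LP replicate 3.

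Errfi1, also called Mig6, binds and inhibits the receptors of the epidermal growth factor family and is induced by growth factors as well as by glucocorticoids. The signals of its 1 probe set, 1373093_at, were 9.98, 9.66, 9.92 and 9.40 in CN and 9.84, 9.93, 9.09 and 8.74 in LP. As for Cebpd, LP replicates 3 and 4 were below all 4 controls, and the other 2 LP rats were within the range of the controls. The mean was 9.74 ± 0.268 in CN and 9.40 ± 0.579 in LP (SD, n = 4 each), a difference of −0.34 (SE 0.319), called lower at a pfp of 0.0112 (exact permutation p = 0.314). Errfi1 was also picked by the study from these arrays. Its call did not hold when CN replicate 1 (−0.26) or 3 (−0.28) or LP replicate 3 (−0.24) or 4 (−0.12) was left out, and the difference was −0.52 without LP replicate 2.

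Sgk1, a serum- and glucocorticoid-regulated kinase that acts on ion channels and on FoxO factors, resembled Errfi1 in its order of rats but was not called. Its signals on 1367802_at were 9.59, 9.43, 9.62 and 8.87 in CN and 9.89, 9.56, 9.11 and 8.56 in LP. The highest and the lowest of the 8 rats were both LP rats. The difference was −0.10 (SE 0.336), with a pfp of 0.0883 for lower and an exact permutation p of 0.743. Without LP replicate 4 it was 0.14, and it was called lower without LP replicate 1 (−0.30) or LP replicate 2 (−0.19).

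Tsc22d3 and Klf9 showed small differences with little spread. Tsc22d3 binds and restrains inflammatory transcription factors such as NF-κB. On 1367771_at its values were 11.71, 11.59, 11.55 and 11.56 in CN and 11.57, 11.52, 11.41 and 11.46 in LP. Of the LP rats, 3 were below all controls and LP replicate 1 was just above the lowest 2. The difference was −0.11 (SE 0.0512), the largest of the members relative to its SE, with a limma p of 0.0595 (adjusted p = 0.677), an exact permutation p of 0.0857 and a pfp of 0.0521, just outside the call. It was called without LP replicate 1 (−0.14).

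Klf9, a zinc finger repressor that rises early after the hormone, had 2 probe sets with differences of −0.15. The signals of 1387882_at were 8.26, 8.24, 8.18 and 8.16 in CN and 7.97, 8.22, 7.91 and 8.15 in LP, and this probe set was called lower at a pfp of 0.0466. Those of 1370209_at were 11.94, 11.90, 11.84 and 11.73 in CN and 11.62, 11.87, 11.55 and 11.77 in LP, with a pfp of 0.0595 and no call. LP replicates 1 and 3 were the lowest rats on each of them. The SE was 0.0764 and 0.0857, and the exact permutation p 0.114 and 0.171. The call of Klf9 did not hold when any of 6 arrays was left out, with the difference on 1370209_at at −0.12, −0.135, −0.15 and −0.19 without CN replicates 1, 2, 3 and 4 in turn, −0.12 without LP replicate 1 and −0.10 without LP replicate 3.

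Klf15, a zinc finger activator of amino acid breakdown in muscle, was called lower, but its LP rats spread to both sides of the controls. The signals of 1368249_at were 9.29, 9.11, 8.99 and 9.29 in CN and 8.71, 8.78, 9.07 and 9.58 in LP. LP replicates 1 and 2 were the lowest of the 8 rats and LP replicate 4 the highest, an order unlike that of Cebpd and Errfi1. The difference was −0.13 (SE 0.211), with a pfp of 0.0341 and an exact permutation p of 0.571. The second probe set, 1381396_s_at, had the same 2 LP rats lowest and LP replicate 4 highest, with a difference of −0.10 (SE 0.108), and was not called. The call was lost without CN replicate 1 (−0.09), 2 (−0.15), 3 (−0.19) or 4 (−0.09) and without LP replicate 1 (−0.03) or 2 (−0.05), and the difference was −0.32 without LP replicate 4.

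Fkbp5, a co-chaperone of Hsp90 that lowers the hormone affinity of the receptor and is itself a sensitive receptor target, was the member with a higher mean in LP. The signals of 1388901_at were 8.81, 8.60, 8.36 and 8.57 in CN and 8.67, 8.74, 8.53 and 8.75 in LP, all of the LP values within the range of the controls. The difference was 0.09 (SE 0.105), with a pfp for higher of 0.169 and an exact permutation p of 0.429. On 1380611_at it was 0.10 (SE 0.111), with a pfp of 0.085. Fkbp5 was called higher, through either of its probe sets, without CN replicate 1 or CN replicate 4. The difference on 1388901_at, which need not be the called probe set, was then 0.17 and 0.09. It was 0.02 without CN replicate 3.

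On day 84, 0 members were called in LP-R against CN-R in either direction. Rank products called 0.274% of all genes lower and 0.422% higher there, or 0.171% of probe sets lower and 0.345% higher, and 1.71% of varying probe sets lower. This split turned with the way arrays were paired, since disjoint pairings of arrays called 30 probe sets lower and 11 higher and all pairs 53 lower and 107 higher. No member was called by either. Of the 10 varying member probe sets, 8 had a lower mean in LP-R (median −0.12), beside 66.0% of all varying probe sets (median −0.02). As in LP, this share is not independent evidence. LP-R and CN-R overlapped for all 10, whereas they did not overlap for 3.84% of varying probe sets. By limma 0 of the 10 had an unadjusted p under 0.05, beside 3.65% of varying probe sets, and 0.0% of all probe sets passed an adjusted p of 0.05.

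Sgk1 had the largest difference of the members in LP-R. Its signals were 9.07, 8.13 and 8.15 in CN-R replicates 1, 2 and 4 and 8.10, 8.35, 8.03 and 7.74 in LP-R replicates 1 to 4. CN-R replicate 1 stood well above the other 6 rats, which overlapped. The difference was −0.39 (SE 0.298, pfp 0.0563, exact permutation p = 0.286), and without CN-R replicate 1 it was −0.08. It was called lower without LP-R replicate 2 (−0.49) and was −0.525 with CN-R replicate 4 counted as LP-R.

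Errfi1 had signals of 8.78, 8.58 and 8.33 in CN-R and 8.61, 8.56, 7.99 and 7.87 in LP-R, a difference of −0.30 (SE 0.25, pfp 0.0734). Cebpd on 1387343_at had 8.36, 8.38 and 7.73 in CN-R and 8.44, 8.20, 7.59 and 7.54 in LP-R, a difference of −0.22 (SE 0.319, pfp 0.126), and on 1368813_at −0.23 (SE 0.18, pfp 0.0797). For both genes LP-R replicates 3 and 4 were the lowest rats, and CN-R replicate 4 was the lowest control. Errfi1 was called lower without LP-R replicate 1 (−0.42) or 2 (−0.40), and its difference was −0.19 without CN-R replicate 1 and −0.17 without LP-R replicate 4. Cebpd was called without LP-R replicate 1 (−0.38), and its difference ran from −0.43 without CN-R replicate 4 to −0.08 without LP-R replicate 4, with −0.10 without CN-R replicate 2 or LP-R replicate 3. With CN-R replicate 4 counted as LP-R, the differences were −0.47 for Cebpd and −0.40 for Errfi1.

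Tsc22d3 had signals of 11.08, 11.27 and 11.36 in CN-R and 11.10, 11.20, 11.08 and 10.95 in LP-R, a difference of −0.15 (SE 0.093, exact permutation p = 0.2). It was −0.23 without CN-R replicate 1, −0.09 without CN-R replicate 4 and −0.04 with CN-R replicate 4 counted as LP-R. The remaining members were closer to 0. Klf9 differed by −0.03 (SE 0.109) and −0.08 (SE 0.0911) on its probe sets, Klf15 on 1381396_s_at by −0.05 (SE 0.0663), and Fkbp5 by 0.11 (SE 0.122) and 0.07 (SE 0.0834). Fkbp5 was again on the higher side, and it was called higher without CN-R replicate 2 (0.21), while the difference was 0.04 without CN-R replicate 1, 0.06 without LP-R replicate 2 and 0.04 with CN-R replicate 4 counted as LP-R. The smallest exact two-sided p that the arrays allow is 0.0286 in each comparison, and the smallest of a varying member probe set was 0.0857 in LP and 0.2 in LP-R.

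**Figure D2:**
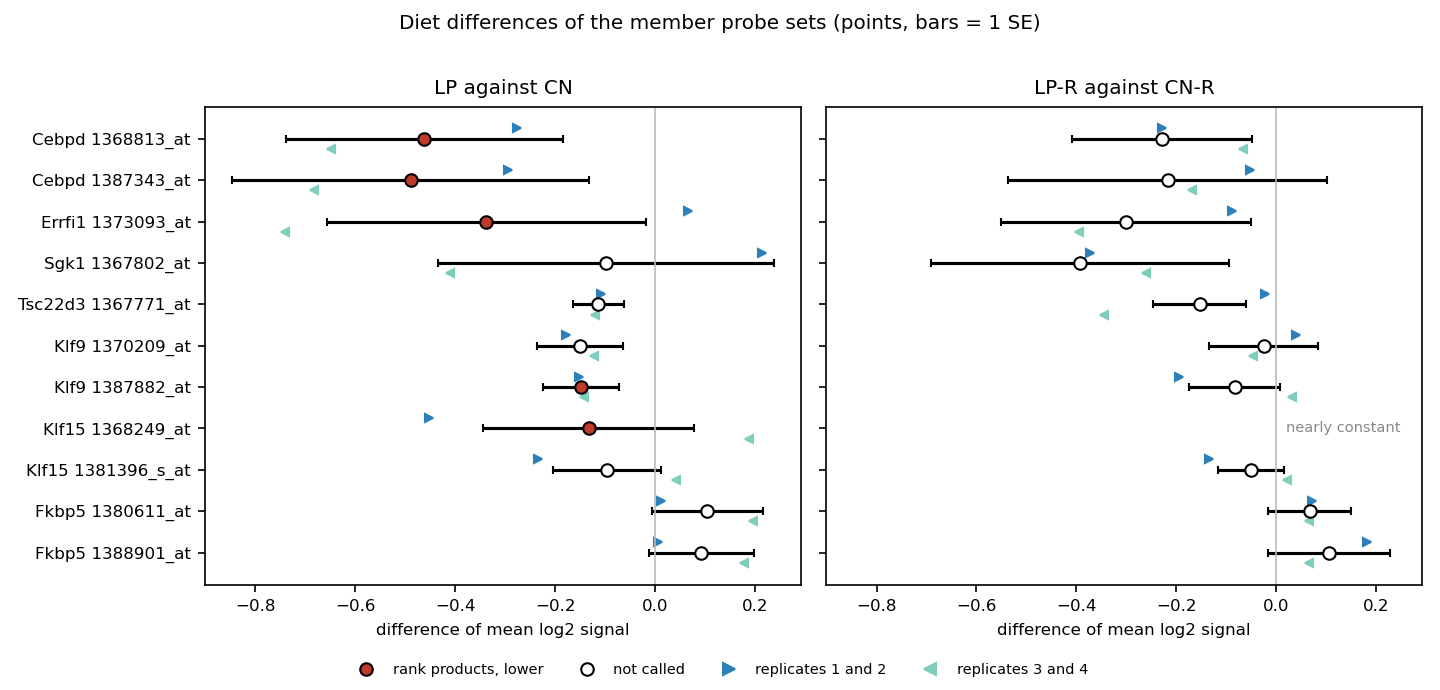
Difference of the mean log2 signal (restricted minus control) of each varying member probe set, with bars of 1 SE, and the same difference within replicate numbers 1 and 2 and within 3 and 4 (triangles). Red points were called lower by rank products, which holds for 5 probe sets in LP and 0 in LP-R.

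Whether the diet difference itself differed between the early and the late rats was tested over the 10 probe sets that vary in both sets, by exchanging labels within each set. The exact p ran from 0.39 to 0.929, and the smallest p adjusted over all probe sets was 0.948. Cebpd had −0.49 in LP and −0.22 in LP-R, Sgk1 −0.10 and −0.39, and Errfi1 −0.34 and −0.30, and none of these differences between the ages went beyond the spread between rats.

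Rats numbered 1 and 2 differed from those numbered 3 and 4 in the signals of several members, and the labels do not say what the numbers mark. Over all varying probe sets, deviations of restricted and control rats from their group means had correlations of −0.0309 to 0.551 within numbers 1 and 2 or within 3 and 4 in the early set (7 of 8 above 0) and −0.535 to 0.112 across them (6 of 8 below 0). In the late set these were −0.088 to 0.283 (5 of 6 above 0) and −0.317 to 0.0931 (5 of 6 below 0). Deviations from a group mean sum to 0 over the group, so correlations above 0 within the numbers push those across them below 0. The counts across the numbers are thus not a separate result. On Cebpd 1387343_at the 4 early rats numbered 1 and 2, of both diets, had signals of 8.77 to 9.50 and the 4 rats numbered 3 and 4 had 7.81 to 8.67, so that the numbers did not overlap. The same held in the late set, at 8.20 to 8.44 against 7.54 to 7.73. The difference between the numbers was 0.76 in the early and 0.72 in the late set, beside diet differences of −0.49 and −0.22.

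Errfi1 did not overlap between these numbers in the late set (8.56 to 8.78 against 7.87 to 8.33) and did in the early set (9.66 to 9.98 against 8.74 to 9.92). Klf9 on 1370209_at also did not overlap in the late set (11.09 to 11.34 against 10.92 to 11.07), and Klf15 on 1381396_s_at was lower in every late rat numbered 1 or 2. Of all varying probe sets, 4.93% had every rat numbered 1 or 2 above every other rat in the early set and 10.3% in the late set. A further 4.71% in the early set and 7.52% in the late set had every rat numbered 1 or 2 below every other rat. This split was chosen with the data known, and no test was made of it.

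In limma with a term for the numbers, added after the data were seen, the unadjusted p of LP against CN was 0.045 and 0.0326 for Cebpd (1387343_at and 1368813_at) and 0.0142 for Tsc22d3, and in LP-R 0.0368 for Cebpd 1368813_at. Over all probe sets the adjusted p of these were 0.644, 0.62, 0.581 and 0.885. In LP-R the other Cebpd probe set, 1387343_at, had an unadjusted limma p of 0.224 with this term. The remaining varying member probe sets had 0.098 or more in LP and 0.0836 or more in LP-R. The share of all varying probe sets under 0.05 with this term was not counted.

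Within the numbers, the diet differences of the members took different signs. In rats numbered 1 and 2, LP differed from CN by −0.30 for Cebpd (1387343_at), 0.07 for Errfi1, 0.21 for Sgk1 and −0.45 for Klf15 (1368249_at). In rats numbered 3 and 4 the values were −0.68, −0.74, −0.41 and 0.19 in the same order. Cebpd, Tsc22d3 (−0.11 and −0.12) and Klf9 (−0.15 and −0.14 on 1387882_at) thus kept their sign in both, and Errfi1, Sgk1 and Klf15 did not. Over the varying member probe sets, 7 of 11 were lower in LP within numbers 1 and 2 and 7 of 11 within 3 and 4, with medians of −0.15 and −0.12. Of all varying probe sets 42.6% and 45.3% were lower, with medians of 0.02 and 0.01. Each count rests on 2 rats of a group and on a split chosen with the data known, so the counts are not separate evidence. In LP-R the corresponding values were −0.05 and −0.17 for Cebpd, −0.09 and −0.40 for Errfi1 and −0.37 and −0.26 for Sgk1, where numbers 3 and 4 hold only 1 control, CN-R replicate 4.

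Co-variation over rats was computed for the 21 pairs of the 7 varying genes in each set, with the probe set of highest mean signal that varies. In the early set Cebpd and Tsc22d3 had a Pearson's r of 0.934 and a Spearman's rho of 0.786 over 8 rats, with exact permutation p of 0.00236 and 0.0279. Sgk1 and Errfi1 had an r of 0.901 and a rho of 0.762 (exact permutation p 0.00402 and 0.0368), and Cebpd and Errfi1 an r of 0.869 and a rho of 0.857 (exact permutation p 0.00231 and 0.0107). After Benjamini-Hochberg adjustment over the pairs of both sets together, these r had an exact permutation p of 0.0422 each, and no rho passed 0.05. Without the 2 rats farthest from the median of the first gene, r was 0.745, 0.817 and 0.951 in the same order.

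The r are over rats of both diets and both kinds of replicate number. With the group means removed, r was 0.939, 0.937 and 0.843, and with the means of group and number removed 0.868, 0.844 and 0.497. The second removal leaves the rats that share a group and number as mirror images of each other. The r then rest on far fewer independent values than rats. In the late set CN-R replicate 4 is alone in its group and number and keeps no deviation. In the late set Cebpd and Errfi1 again moved together, with an r of 0.935 and a rho of 0.893 over 7 rats (exact permutation p 0.00337 and 0.0123, adjusted 0.0422 and 0.258). This r was 0.844 without 2 rats and 0.182 with the means of group and number removed. Cebpd and Tsc22d3 had an r of 0.232 in the late set.

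Klf15 had a negative r with Cebpd, Sgk1 and Errfi1 in both sets. With the means of group and number removed, 3 of these 6 r were above 0, at 0.307 with Cebpd in the early set and 0.978 with Sgk1 and 0.846 with Errfi1 in the late set. Few independent values remain after this removal, so these signs decide nothing. With Sgk1 in the early set r was −0.816 (exact permutation p 0.0125, adjusted 0.105) and rho −0.69 (exact permutation p 0.0694). With Cebpd in the late set r was −0.704 (exact permutation p 0.0891, adjusted 0.267) and rho −0.857 (exact permutation p 0.0238), and none of these passed after adjustment. With the group means removed, r of Klf15 was −0.88 with Sgk1 and −0.851 with Errfi1 in the early set and −0.919 with Errfi1 in the late set. The permutation p of these were adjusted to 0.0396, 0.0431 and 0.0431, whereas early Cebpd and Errfi1 no longer passed (adjusted permutation p 0.068). Deviations from group means sum to 0 within a group and are not freely exchangeable over rats. The p of group-centred values are thus approximate, not exact. Without the 2 rats farthest from the median of the first gene the r of Klf15 with Sgk1 and with Cebpd, groups not removed, were −0.486 and −0.467. Fkbp5 had r from −0.06 to 0.33 with the other members in the early set. In all, 3 of 21 pairs had an r of 0.8 or more in the early set, beside 2.8% of all pairs of varying probe sets. In the late set it was 1 of 21 beside 4.9%, which is about the same share.

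**Figure D3:**
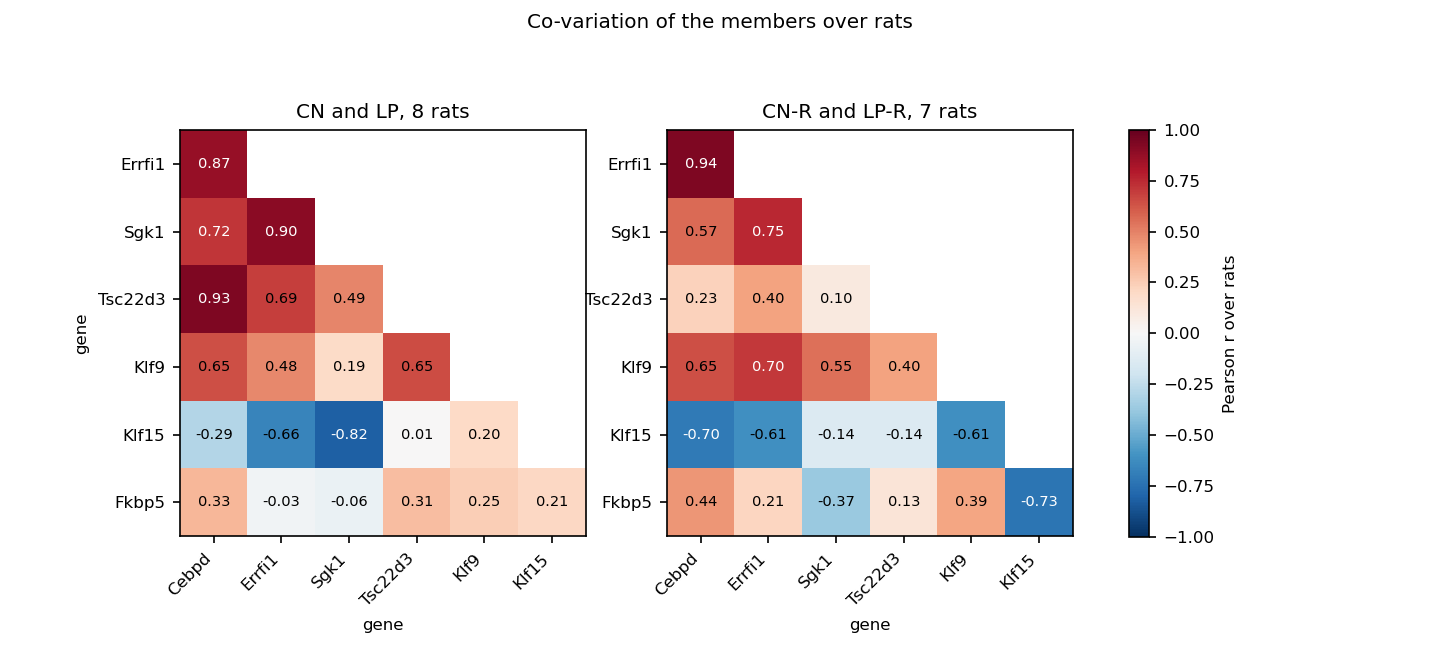
Pearson's r over rats for each pair of the 7 varying genes, for the 8 early rats and the 7 late rats (colour and number, from −1 in blue to 1 in red). Cebpd, Errfi1 and Sgk1 have positive values with each other in both sets, and Klf15 has negative values with each of these genes. Some of the latter change sign once the means of group and replicate number are removed, where few independent values remain.

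The genes most like a member over rats were sought among 1665 probe sets that carry 1 symbol and vary in both sets, by the lower of the Pearson's r in the early and the late set. For Cebpd these were Ddit4, an inhibitor of mTORC1 that glucocorticoids induce (r 0.937 early and 0.91 late), and Tob2, an antiproliferative factor (0.895 and 0.916). For Sgk1 they were Klf2 (0.959 and 0.961) and Rhob (0.954 and 0.947), and for Errfi1 Pxdc1 (0.909 and 0.991) and the immediate early receptor Nr4a1 (0.893 and 0.889). For Klf9 they were Nipbl and Akap9 (0.959 to 0.99), and for Klf15 Tmbim6 and the insulin-responsive glucose transporter Slc2a4 (0.863 to 0.915). The likest genes of Tsc22d3, Ythdf2 and Mettl21c, and of Fkbp5, Timp4 and Atpaf1, had r from 0.686 to 0.903. These are the highest of many values over 8 and 7 rats, and no test was made of them.

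The promoter windows of the members were read for 2 sets of letters. RefSeq windows of the GRCr8 build, from 250 bases before to 50 after a start site, were given for 7 of the 8 genes (12 windows). Cebpd had no window, so the counts below do not cover it. The hexamers of the receptor's palindrome, AGAACA and TGTTCT, each the reverse complement of the other, were searched on both strands. They were in 0 of the 12 windows and in 20.7% of all 33469 windows. The palindrome of these hexamers with 3 bases between them was in 0.0149% of all windows, and in 1.87% with up to 2 mismatches, and in 0 member windows. The core of the cAMP response element, TGACG or its reverse complement CGTCA, was in 4 of the 12 windows, those of 4 of the 7 genes, and in 21.2% of all windows. These matches are letters in a short window and are no evidence of binding, and the absence of the hexamers says nothing of sites elsewhere.

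The 4 windows with TGACG or CGTCA are shown for the 200 bases before the start site, 5′ to 3′ on the strand of the gene, with the matches in capitals. Errfi1 is at chr5:166606641-166606840 on the plus strand, Tsc22d3 at chrX:109010035-109010234 on the minus strand, Klf9 at chr1:230126446-230126645 on the plus strand and Klf15 at chr4:124522815-124523014 on the plus strand. Tsc22d3 has 3 start sites in the table, and this is the one with the match.
Errfi1: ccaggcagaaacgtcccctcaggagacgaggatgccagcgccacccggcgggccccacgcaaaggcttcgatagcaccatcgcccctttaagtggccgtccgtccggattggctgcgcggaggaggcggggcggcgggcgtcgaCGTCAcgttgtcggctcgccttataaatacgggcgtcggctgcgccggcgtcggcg
Tsc22d3: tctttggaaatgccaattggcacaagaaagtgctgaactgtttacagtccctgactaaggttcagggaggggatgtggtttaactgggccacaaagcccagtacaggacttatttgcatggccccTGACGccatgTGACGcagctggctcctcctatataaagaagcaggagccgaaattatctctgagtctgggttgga
Klf9: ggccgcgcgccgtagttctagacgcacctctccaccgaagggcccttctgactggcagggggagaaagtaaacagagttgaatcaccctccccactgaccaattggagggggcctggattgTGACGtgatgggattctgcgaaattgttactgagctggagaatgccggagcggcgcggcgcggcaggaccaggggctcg
Klf15: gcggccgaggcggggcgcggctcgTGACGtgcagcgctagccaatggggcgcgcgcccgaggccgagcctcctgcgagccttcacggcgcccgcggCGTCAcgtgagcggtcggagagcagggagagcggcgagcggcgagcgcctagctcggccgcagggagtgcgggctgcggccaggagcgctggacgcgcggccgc

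Klf15 and Tsc22d3 have 2 matches each and the other genes 1. The genes with a match include Klf9 and Klf15, which did not move together (r 0.199 early and −0.613 late), as well as Errfi1 and Tsc22d3 (0.688 and 0.4).

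The other genes of the hormone's pathway were read from lists drawn from general knowledge, and described by counts. The lists were chosen with earlier results of these data known, so an excess of calls in them is not independent evidence. Genes named with an SE, here and among the markers below, are mostly those of smallest limma p in their list. Without the term for the numbers, no probe set of the array passed an adjusted limma p of 0.05 in either comparison. Of 17 measured genes of hormone activation, chaperones and cofactors of the receptor, 3 were called lower in LP (Hsp90ab1, Ncor1 and Crebbp) and 3 higher (Hsd11b1, Stip1 and Dnajb1). That is 17.6% each way, beside 2.41% of all genes lower and 2.57% higher. Ncor1 and Crebbp were called through a probe set other than that of highest signal, which was nearly constant. Hsd11b1, which makes active hormone in the tissue, was 8.37 ± 0.0373 in CN and 8.49 ± 0.0365 in LP (SD, n = 4 each), higher by 0.12 (SE 0.0261) and called higher. Hsp90ab1, the chaperone of the receptor, was called lower, with a difference of −0.26 (SE 0.0891). In LP-R 0 of the 17 were called.

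Of 45 measured other genes known to rise with glucocorticoids, 17 were called lower in LP (37.8%) and 3 higher (6.67%), beside 2.41% and 2.57% of all genes. These shares are not alike in make-up, since lower calls fell only on varying probe sets. The probe set of highest signal varied for 37 of the 45, beside 2423 of all 14217 genes. Of varying probe sets, 12.4% were called lower. Of the 37 whose probe set varied, 25 had a lower mean, with a median of −0.11, beside 36.8% of all varying genes with a median of 0.03. Cdkn1c, a cell cycle inhibitor, differed by −0.20 (SE 0.0615), the metallothionein Mt2A by −0.32 (SE 0.0993) and the AMP deaminase Ampd3 by −0.36 (SE 0.123), all called lower. Several of these genes also respond to other signals, and the list's direction is no measure of the hormone, which was not among the values used here. The 3 called higher were Ccnd2, Hspb1 and Cited2. In LP-R 4 of the 45 were called lower (Arrdc2, Arrdc3, Cdkn1a and Irs2) and 1 higher (Cited2). That is 8.89% and 2.22%, beside 0.274% and 0.422% of all genes. Arrdc3, an arrestin-domain protein, differed by −0.53 (SE 0.143).

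Of 22 targets and partners of the members, 6 were called lower in LP (27.3%) and 0 higher. Of all genes 2.41% were called lower and 2.57% higher, and of varying probe sets 12.4% lower. The probe set of highest signal varied for 10 of the 22, and 9 of these had a lower mean. Gpt, of the same list, differed by 0.06 (SE 0.0256) and was not called, and Prodh was nearly constant. Fbxo32, the muscle ubiquitin ligase atrogin-1 that Klf15 and FoxO factors induce, was 8.55 ± 0.435 in CN and 7.83 ± 0.26 in LP (SD, n = 4 each), a difference of −0.72 (SE 0.254). Bcat2, the branched-chain aminotransferase that Klf15 induces, differed by −0.30 (SE 0.121), and Gsk3b, a kinase, by −0.22 (SE 0.0816). In LP-R 0 of the 22 were called, and Fbxo32 differed by −0.01 (SE 0.205). Of 26 family relatives of the members, 1 was called lower and 1 higher in LP (3.85% each), near the shares of all genes. These were Cebpb at −0.21 (SE 0.077) and Klf6 at 0.11 (SE 0.163). In LP-R 2 were called lower (7.69%, beside 0.274% of all genes), Klf10 at −0.39 (SE 0.144) and Klf2 at −0.67 (SE 0.695). Fbxo32 and Trim63 of the 6 lower targets, and Cebpb, are also in the list of other glucocorticoid genes and are counted there too.

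**Figure D4:**
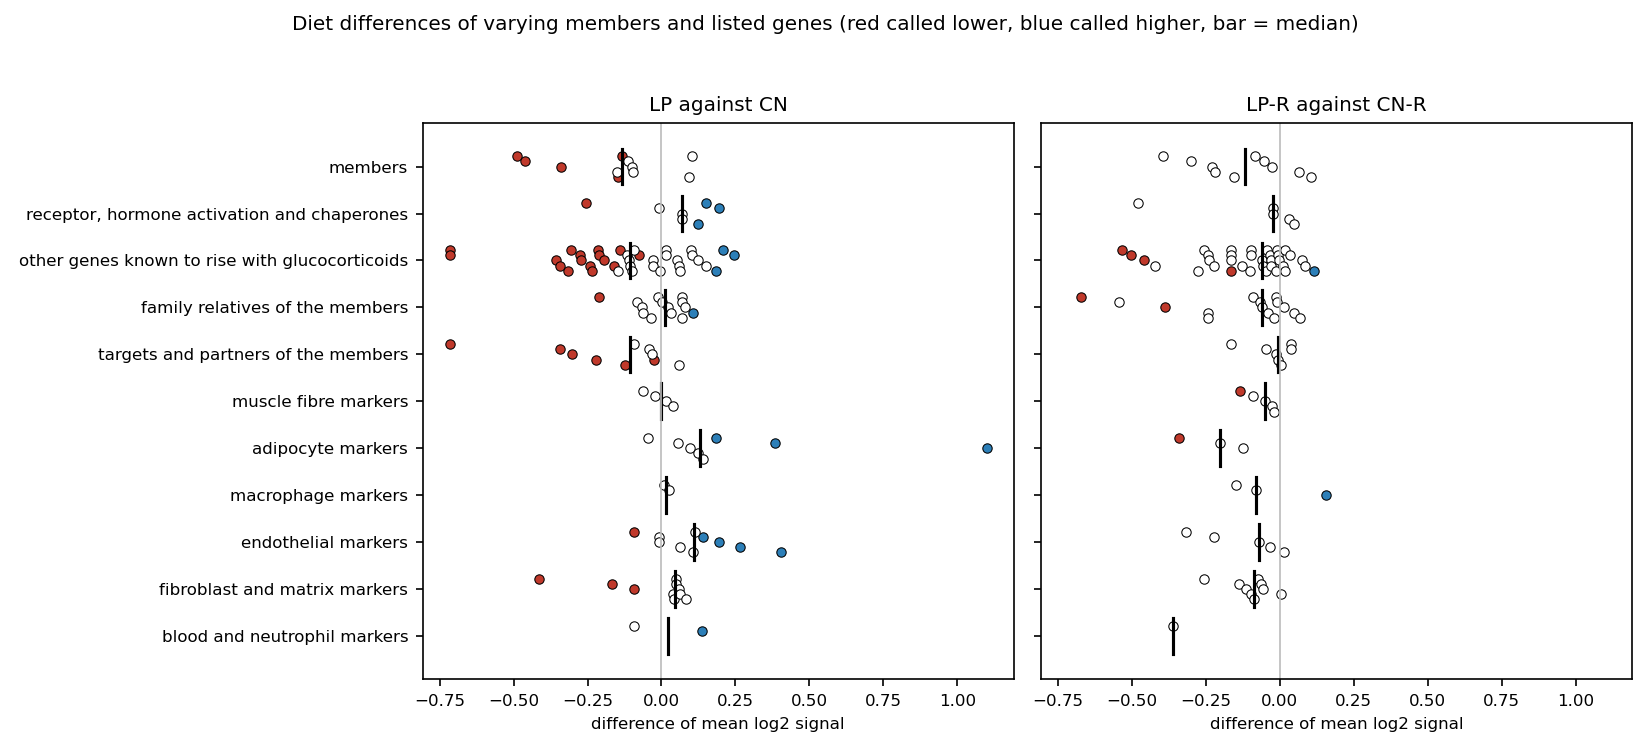
Difference of the mean log2 signal of the varying member probe sets, and of the listed genes whose probe set of highest signal varies, in LP against CN and LP-R against CN-R (red, gene called lower; blue, called higher; white, not called; bar, median). The other genes known to rise with glucocorticoids hold red points mostly to the left of 0 in LP and few in LP-R.

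Markers of the cell types that a muscle sample can hold were read beside these values. Of all genes, 2.41% were called lower and 2.57% higher in LP, and 0.274% and 0.422% in LP-R. In the early set the probe set of highest signal varied for 4 of 12 muscle fibre, 10 of 11 endothelial and 8 of 11 adipocyte markers. It varied for 10 of 12 matrix, 2 of 12 macrophage and 2 of 6 blood markers. Counts of calls are thus not alike in make-up between these lists. Muscle fibre markers lay near the top of the range of all signals (5.24 to 14.07 in the early set), with means over the 12 genes of 13.39 to 13.41 in CN and 13.40 to 13.41 in LP, and 0 called in LP. Of 11 endothelial markers 4 were called higher in LP and 1 lower, namely Kdr (0.40, SE 0.0787), Tie1, Emcn and Cldn5 higher and Sox17 lower. The mean signal over these 11 was 8.29 to 8.38 in CN and 8.32 to 8.52 in LP. Of 11 adipocyte markers 3 were called higher in LP, namely Scd, Fasn and Adipoq, with means over the list of 7.23 to 7.50 in CN and 7.19 to 7.82 in LP.

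Of 12 fibroblast and matrix markers 3 were called lower in LP, Postn at −0.42 (SE 0.231), Col1a1 and Col1a2, with list means of 10.56 to 10.79 in CN and 10.59 to 10.67 in LP. Of 12 macrophage markers 0 were called, and Cd68 was nearly constant. Of 6 blood and neutrophil markers 1, S100a9, was called higher. In LP-R 1 muscle marker was called lower (Myh7) and 1 higher (Myh1), 1 adipocyte marker (Cfd) lower and 1 macrophage marker (Lyz2) higher, and 0 of the endothelial, matrix or blood markers. Myh1 was called through a probe set other than that of highest signal, which was nearly constant. Their part in the members' values was not tested.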

How the data were processed

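RNA of the gastrocnemius muscle was measured with 1 array for each of 15 rats, in 4 groups taken from the titles. The values are the log2 signals that the authors deposited, which the paper's methods say were computed by FARMS under R. No raw intensities were used and no further normalization was applied. The number of arrays limits the precision. Replicates are separate rats per the labels. Of the probe sets, 57 controls were left out and 31042 tested. Of these, 20826 carry 1 symbol, 436 several and 9780 none. Early and late arrays were taken to have been summarized apart, since 94.7% of the 26041 probe sets nearly constant in both sets differ between them by over 0.01.

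Rank products were written in Python 3.11.15 (numpy 2.4.6, scipy 1.17.1, pandas 2.3.3) and used every pair of 1 restricted and 1 control array, with 100 permutations that shuffle each array's values, seed 1 and a pfp up to 0.05 in each direction. limma 3.58.1 was run in R 4.3.3, with Benjamini-Hochberg adjustment over all probe sets. Both were tested on simulated data. Exact permutation tests were two-sided, over all splits of the arrays of a set. A gene was called when at least 1 probe set that carries its symbol alone was called, and is represented by its probe set of highest mean signal. Beside the members, the text names genes among the 3 of smallest limma p in each list and the 2 most like each member. The other called genes of lists with few calls, Cd68, Gpt, Prodh, and Fbxo32 in LP-R were named after their values were seen. The members and lists were chosen with earlier results of these data known. Alternatives were limma, quantile normalization, median centring, varying probe sets alone, replicate blocks, pairs within replicate numbers, gene means, CN-R replicate 4 as LP-R and leaving out each array. Disjoint pairings of arrays and the limma term for replicate numbers were added after the data were seen. Promoter windows were read from a RefSeq table of GRCr8.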

Additional observations from a re-analysis of the deposited data

Results flagged for a closer look

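Of 32 sets of 4 values (a member probe set in a group of 4 rats) examined for a rat far from the others, 1 had such a rat. On Cebpd 1368813_at, CN replicate 1 stood at 8.77 and the next control at 8.16, a gap of 0.836 of the range of the 4 controls. Chance puts about 1 in 20 groups past this limit. The difference of LP from CN on the other probe set of Cebpd was −0.27 without this rat, as given above.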

How the results depend on the processing

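With varying probe sets alone, with gene means of varying probe sets, with limma in place of rank products, with limma and a replicate block and with limma when numbers 1 and 2 were set apart from 3 and 4 by a model term (added after the data were seen), 0 members were called lower in LP, against 4 with rank products over all pairs. Leaving out each array gave 0 to 4 members called lower and 0 to 1 higher in LP, and 0 to 2 lower and 0 to 1 higher in LP-R. Within replicate numbers 1 and 2 and within 3 and 4, 5 were called lower in LP (Tsc22d3 in addition) and 1 higher (Fkbp5), and 1 lower in LP-R (Sgk1). Pairs of the same replicate number (replicate block) gave 4 lower in LP, with Tsc22d3 in place of Klf15, and 0 in LP-R. The labels do not say whether the numbers pair the rats, and these few correlations cannot decide it. Deviations from the group means of same-numbered rats had correlations of 0.551, −0.0309, 0.165 and 0.401 in the early set. In the late set they were 0.0441, 0.186 and 0.215. LP replicates 2 and 3 and LP-R replicate 1 correlated best with a control of another number. LP replicates 1 and 4 and LP-R replicates 2 and 4 did so with the control of their own number. Disjoint pairings called 3 members lower in LP, without Klf9, and 0 in LP-R. The difference of Sgk1 in LP ranged from −0.30 to 0.14 without 1 array. That of Klf9 in LP-R was 0.0106 within the replicate numbers, 0.00488 with the limma term for them and −0.10 to 0.037 without 1 array. For the cause of these shifts no test was made. Quantile normalization, median centring and CN-R replicate 4 counted as LP-R changed no count of called members. The adjusted p of r was passed by 4 pairs with quantile normalization and by 6 with group-centred values, where the p is approximate. With the values as given 4 pairs passed, of which 3 are among the 6. With CN-R replicate 4 counted as LP-R, however, the differences in LP-R moved, as given above, from −0.22 to −0.47 for Cebpd, from −0.15 to −0.04 for Tsc22d3 and from 0.11 to 0.04 for Fkbp5. Over all probe sets, varying ones alone gave 20 lower and 11 higher in LP and 2 and 5 in LP-R, and disjoint pairings 439 and 450 in LP and 30 and 11 in LP-R, against 491 and 522, and 53 and 107. With 3 or 4 rats in a group, a member that was not called is not shown to be alike in the groups.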
